A study of Homo sapiens with 16 samples.

Results

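The libraries described here are those in which NELFE was knocked down while HCT116 cells were exposed to HMBA, set against HMBA-exposed cells with a control shRNA. They are 5 of the 16 libraries of the series. HCT116 is a human colorectal carcinoma line. The 3 knockdown libraries carried an shRNA against NELFE (shNELFE). Of these, 1 was given HMBA alone (replicate 2) and 2 were given HMBA together with EPZ-5676 (replicates 1 and 2). The 2 control libraries carried a control shRNA (shCTL), 1 with HMBA alone and 1 with HMBA and EPZ-5676, both replicate 2. All 5 libraries therefore had HMBA, and 4 further libraries numbered 2 gave the knockdown without HMBA, namely shNELFE with EPZ-5676, shNELFE with DMSO, shCTL with EPZ-5676 and shCTL with DMSO. DMSO is a solvent. Doses, times, the number of shRNA sequences and clones, and whether the replicates were separate cultures are not given in the labels, and a p-value here therefore rests on the spread among these libraries alone, which could be technical.

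The 5 libraries were chosen by the likeness of their expression profiles, and the values that chose them are given as a description. Among the 5, Pearson's r of log2 expression across genes ran from 0.986 to 0.991 over 10 pairs of libraries. Against the other 3 libraries labelled with HMBA, all numbered 1, it ran from 0.874 to 0.893 over 15 pairs. The library of shNELFE with both compounds numbered 1 had r = 0.987 with its replicate and is the sole library numbered 1 that is used. The 5 libraries held 13647819 to 17867037 counts, at which 3 counts in a library correspond to 0.168 to 0.2198 CPM, counts scaled to library totals. Mitochondrial genes took 9.86%, 12.2% and 9.93% of counts in the shNELFE libraries, the highest being replicate 1 with both compounds, and 8.87% and 10.1% in the shCTL libraries. Summed over 10 epithelial markers, expression was 4867 to 8302 CPM in the shNELFE libraries, highest in replicate 1 with both compounds, and 5252 to 5435 CPM in the shCTL libraries. The 6 leukocyte markers summed to 0.898 to 1.40 CPM in shNELFE and 0.960 to 1.48 CPM in shCTL, with CD3E at 0. The 4 endothelial markers summed to 11.2 to 14.6 CPM in shNELFE and 12.1 to 15.0 CPM in shCTL, and the 8 fibroblast markers to 38.6 to 54.8 CPM and 53.4 to 56.4 CPM, with LUM at 0.

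Negative elongation factor (NELF) is a complex of several subunits that holds RNA polymerase II in a pause shortly after it leaves the promoter, and NELFE is its RNA-binding subunit. The kinase P-TEFb, made of CDK9 and a cyclin T, phosphorylates NELF, its partner DSIF and the polymerase, after which elongation proceeds. HMBA, hexamethylene bisacetamide, is a polar compound that frees P-TEFb from the inhibitory 7SK ribonucleoprotein and raises HEXIM1, an inhibitory protein of that particle. EPZ-5676 (pinometostat) inhibits DOT1L, the methyltransferase of lysine 79 of histone H3. Setting shNELFE against shCTL in the presence of HMBA asks which transcripts differ on loss of NELFE in cells exposed to the compound.

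The shRNA target was low in each of the 3 knockdown libraries used. NELFE (hg38, chromosome 6, 31952087 to 31959110) stood at 17.7 CPM in shNELFE with HMBA alone, 12.99 and 14.8 CPM in replicates 1 and 2 of shNELFE with both compounds, and at 72.0 CPM in shCTL with HMBA alone and 67.8 CPM in shCTL with both. CPM here are on library totals scaled by the trimmed mean of M values (TMM) over the 9 libraries named above. The groups did not overlap, with means of 15.1 ± 2.37 CPM in shNELFE (SD, n = 3) and 69.9 ± 2.97 CPM in shCTL (SD, n = 2). The fitted log2 fold change was −2.17 (SE 0.16). Without HMBA, NELFE stood at 18.2 CPM (DMSO) and 21.6 CPM (EPZ-5676) in shNELFE and at 76.6 and 81.0 CPM in shCTL. The knockdown with HMBA differed from that without it by a log2 value of −0.19 (SE 0.20, adjusted p = 0.921, edgeR quasi-likelihood test). NELFE was not low in the library of shNELFE with HMBA alone numbered 1, which was left out. Scaled over all 16 libraries, it stood there at 81.1 CPM. On that scale it stood at 70.8 and 67.2 CPM in the shCTL libraries used, and at 133 and 279 CPM in the shCTL libraries with HMBA left out.

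The other subunits did not pass the test. NELFA, a scaffold subunit, stood at 17.1, 24.2 and 19.9 CPM in the shNELFE libraries with HMBA and at 18.8 and 21.4 CPM in the shCTL libraries, a log2 fold change of −0.03 (SE 0.17, adjusted p = 0.952). NELFB had a log2 fold change of 0.21 (SE 0.15, adjusted p = 0.654). NELFCD, which joins NELFA and NELFB in the complex, stood at 71.8, 79.6 and 72.8 CPM in shNELFE and at 56.4 and 54.1 CPM in shCTL. Those groups did not overlap, and the log2 fold change of 0.43 (SE 0.14) had an adjusted p of 0.514. HEXIM1, which reports on the HMBA response, stood at 385, 338 and 380 CPM in shNELFE and at 369 and 373 CPM in shCTL. Without HMBA it stood at 67.5 and 66.7 CPM in shNELFE and at 81.5 and 77.8 CPM in shCTL. All 5 libraries used with HMBA thus lay above the 4 used without it. This did not hold for the 3 libraries labelled with HMBA that were left out. Scaled over all 16 libraries, HEXIM1 stood in those at 76.0, 46.5 and 66.5 CPM, against 325 to 374 CPM in the 5 used. Its knockdown log2 fold change with HMBA was −0.00 (SE 0.14, adjusted p = 0.997), that of CDK9 was −0.05 (SE 0.14, adjusted p = 0.907) and that of DOT1L was 0.21 (SE 0.19, adjusted p = 0.717).

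**Figure D1:**
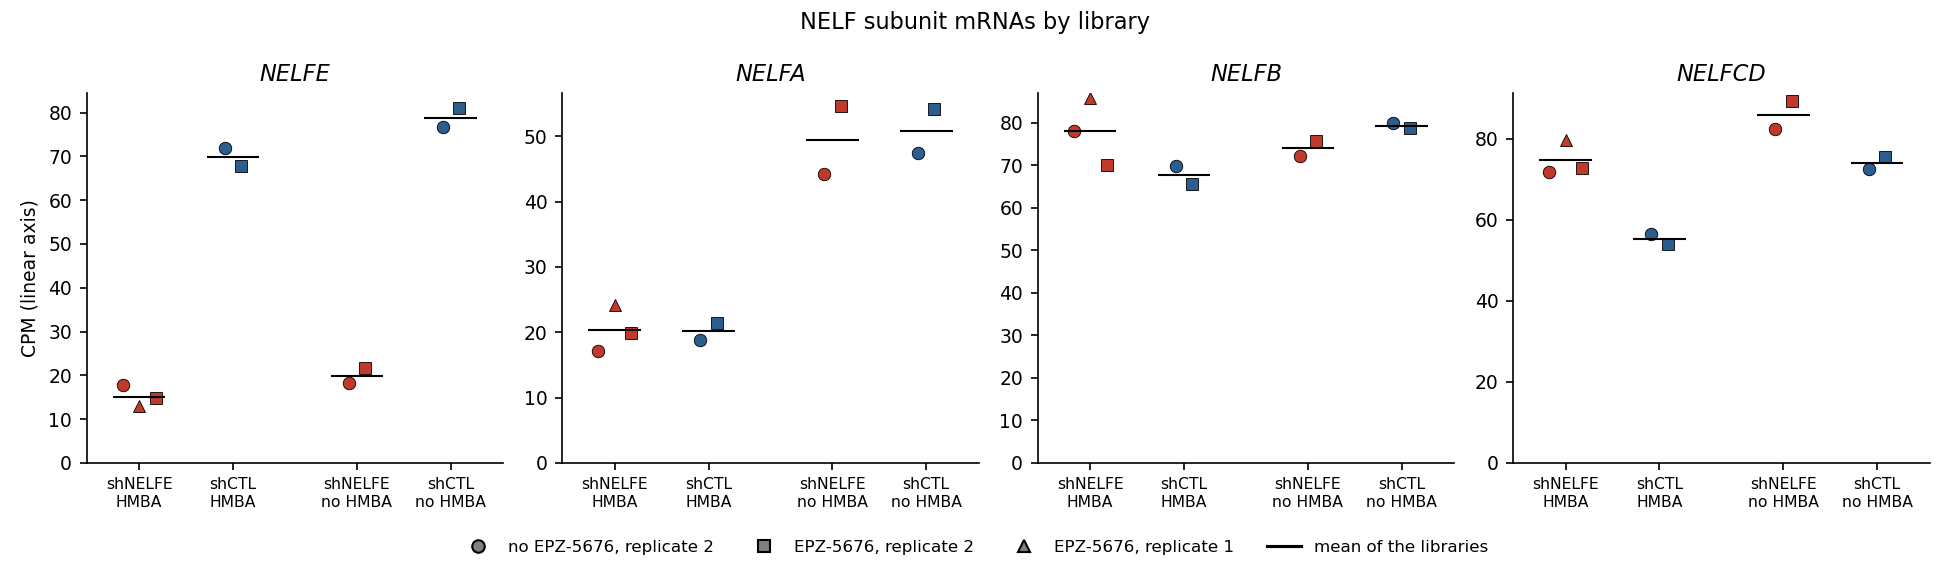
Expression of the 4 NELF subunit genes in CPM (linear axis from 0) in the 9 libraries, with shNELFE in red left of shCTL in blue, first with HMBA and then without. Points are libraries (circles without EPZ-5676, squares and triangles with it, triangles replicate 1) and lines are means. NELFE lies between 12.99 and 17.7 CPM in the shNELFE libraries with HMBA and between 67.8 and 72.0 CPM in the shCTL ones. The other 3 genes show no such fall. With HMBA, NELFA overlaps between the shRNAs, and in 2 genes, NELFB and NELFCD, the shNELFE libraries lie above the shCTL ones by a smaller gap.

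Genes beside NELFE on chromosome 6 were examined because their reads can adjoin. CFB, complement factor B, ends at base 31952084, next to the end of NELFE. It stood at 0.402, 0.484 and 0.591 CPM in the shNELFE libraries and at 2.44 and 1.92 CPM in the shCTL libraries, which rests on 20 and 63 counts. The ratio of summed counts was 0.229 (exact binomial 95% interval 0.131 to 0.384, counting error only) and the gene did not pass the test (log2 fold change −2.10, SE 0.40, adjusted p = 0.283). Without HMBA the ratio was 0.227 (0.106 to 0.446). The library kit kept strand but the strand setting of the counts is not given in the sources used here, and whether reads of NELFE were counted for CFB was not tested. SKIC2, an RNA helicase gene that overlaps the start of NELFE, had a log2 fold change of −0.29 (SE 0.16, adjusted p = 0.614). DXO, STK19 and ZBTB12 had log2 fold changes of −0.08, −0.08 and 0.44 and did not pass.

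Across all genes, 5 of 14210 tested passed an adjusted p of 0.05 (0.0352%). NELFE fell (0.00704%), and ARC, ADM, CDKN1C and B3GALT4 rose (4 genes, 0.0281%). In all 5 the 3 shNELFE libraries lay on one side of the 2 shCTL libraries, which was so of 16.9% of all genes with shNELFE higher and 16.9% with shNELFE lower. An unadjusted p under 0.05 was reached by 670 genes higher in shNELFE (4.71%) and 601 lower (4.23%). The replicates of shNELFE with both compounds also differed from each other. Of 12195 genes with a mean of at least 2 CPM, 422 (3.46%) differed by at least 2-fold between replicates 1 and 2 of that group. By comparison 123 genes (1.01%) differed by as much between shNELFE and shCTL with HMBA alone, 125 (1.03%) between shNELFE and shCTL replicate 2 with both compounds, and 620 (5.08%) between shNELFE replicate 1 and shCTL replicate 2 with both compounds. With replicate 1 left out, 1910 of 14049 genes passed (13.6%, 834 higher and 1076 lower). With replicate 2 of shNELFE with both compounds left out instead, 1202 of 14106 passed (577 higher and 625 lower). Each of these fits had 1 residual degree of freedom and held no replicate pair. Neither count is therefore set against the spread between replicates.

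**Figure D2:**
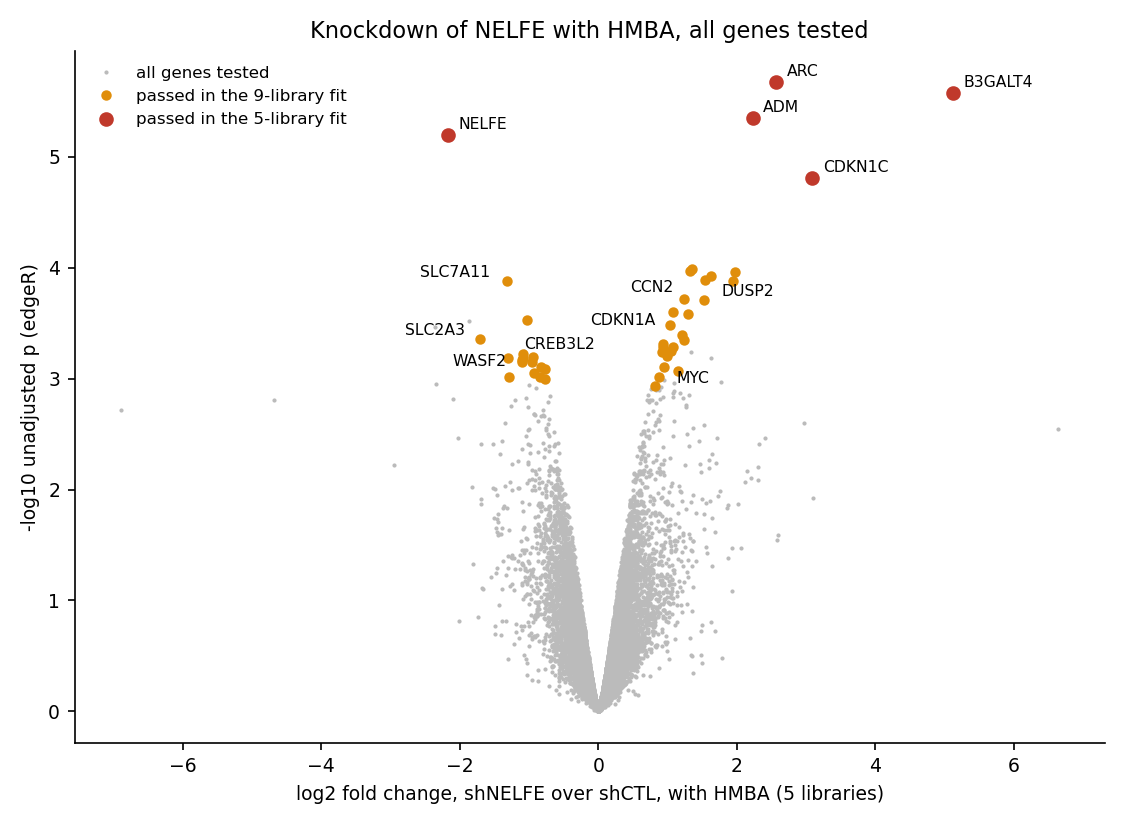
Log2 fold change of shNELFE over shCTL with HMBA (x axis) against −log10 of the unadjusted p (y axis) for each gene tested in the 5 libraries. The 5 genes past the adjusted threshold in that fit are red, with NELFE alone on the left, and genes that passed in the 9-library fit are orange.

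ARC is an immediate early gene best known from neurons, where it regulates synaptic receptors. Its expression was 353, 340 and 286 CPM in shNELFE with HMBA alone and in replicates 1 and 2 with both compounds, against 55.3 and 55.9 CPM in shCTL with HMBA alone and with both. Every knockdown library was far above both controls. The rise was 5.93-fold (log2 2.57, SE 0.16, adjusted p = 0.0190). Without HMBA, ARC stood at 5.999 and 6.07 CPM in shNELFE and at 6.94 and 5.69 CPM in shCTL, with the groups overlapping. Among the 9 libraries used, HMBA-exposed libraries of both shRNAs thus lay above every library without HMBA, and those of shNELFE lay highest.

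ADM encodes adrenomedullin, a secreted vasodilator peptide known for its induction in low oxygen. It stood at 81.4, 84.4 and 74.9 CPM in the shNELFE libraries with HMBA, against 17.6 and 16.8 CPM in the shCTL libraries, a rise of 4.70-fold (log2 2.23, SE 0.16, adjusted p = 0.0213). Without HMBA it stood at 67.1 and 69.7 CPM in shNELFE and at 74.5 and 91.6 CPM in shCTL. The 2 shCTL libraries with HMBA are therefore the low ones, and the shNELFE libraries with HMBA lie within the range of the 4 libraries without it.

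CDKN1C encodes p57, an inhibitor of cyclin-dependent kinases whose gene is imprinted. Its expression was 77.5, 155 and 97.2 CPM in shNELFE with HMBA alone and in replicates 1 and 2 with both compounds, against 10.9 and 12.9 CPM in shCTL. The groups did not overlap, but the 2 replicates of shNELFE with both compounds differed by more than the shCTL libraries did. The rise was 8.53-fold (log2 3.09, SE 0.27, adjusted p = 0.0441). Without HMBA all 4 libraries were low, at 7.03 and 4.83 CPM in shNELFE and 4.24 and 3.81 CPM in shCTL.

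B3GALT4, a galactosyltransferase of ganglioside synthesis (chromosome 6, 33277132 to 33284832), stood at 11.2, 11.9 and 10.3 CPM in the shNELFE libraries with HMBA, against 0.221 and 0.384 CPM in the shCTL libraries. It was near the counting floor in both controls. On 450 counts in shNELFE and 9 in shCTL the ratio was 36.1 (exact binomial 95% interval 18.8 to 79.4, counting error only), with an adjusted p of 0.0190 for the fitted change. Without HMBA it stood at 8.80 and 7.92 CPM in shNELFE and at 0.578 and 0.870 CPM in shCTL, a ratio of 11.6 (7.52 to 18.8), and the knockdown without HMBA also passed (adjusted p = 0.0208).

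**Figure D3:**
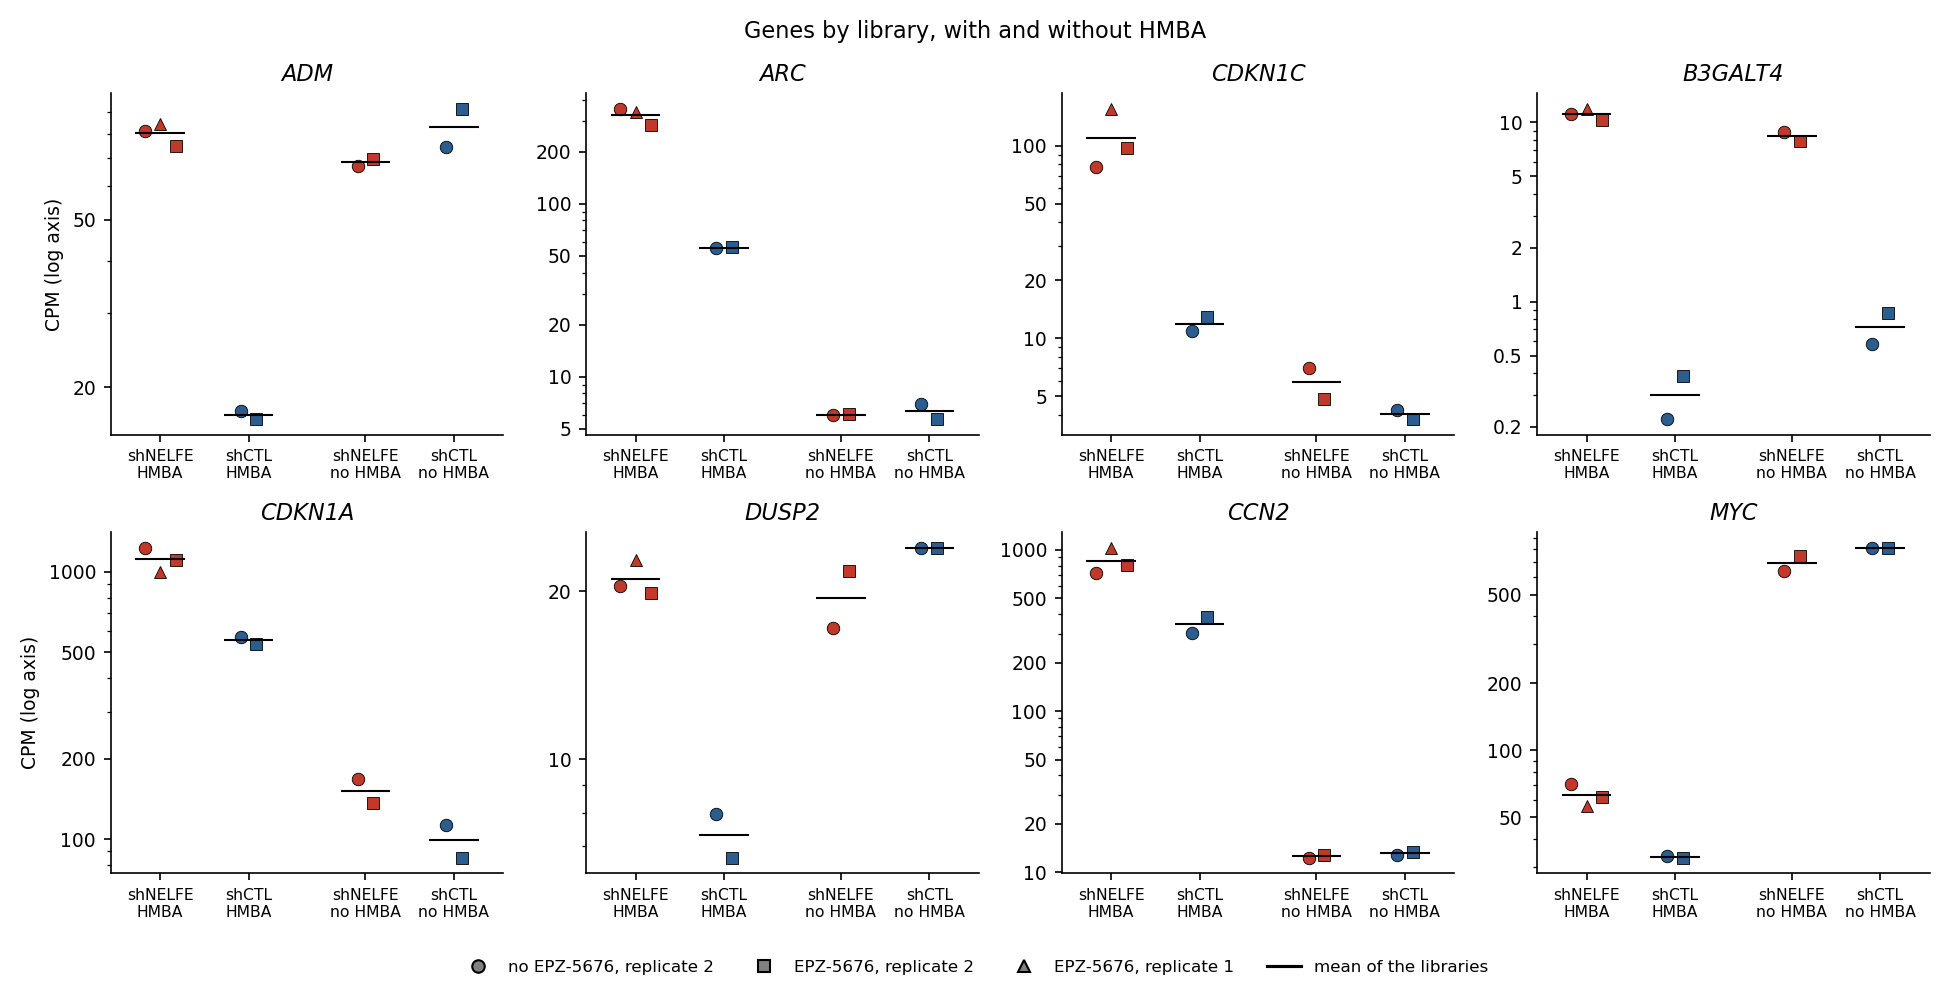
Expression in CPM (log axes) of 8 genes in the 9 libraries, shNELFE in red left of shCTL in blue, with HMBA on the left of each panel and without it on the right. Points are libraries and lines are means; ADM and DUSP2 are lowest in the shCTL libraries with HMBA, ARC, CDKN1C and CCN2 are highest in shNELFE with HMBA, and B3GALT4 is higher in shNELFE in both settings.

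A second fit added the 4 libraries without HMBA, with a separate knockdown effect for each setting, which left 3 residual degrees of freedom. For the knockdown with HMBA it called 44 of 14912 genes (0.295%), 27 higher (0.181%) and 17 lower (0.114%) in shNELFE. The 5 genes above were among them. In all 44 the shNELFE and shCTL libraries with HMBA did not overlap, against 16.9% of all genes in each direction. That is no further support, since the 44 had passed a test on these same libraries. An unadjusted p under 0.05 for the knockdown with HMBA was reached by 2147 genes in this fit. For the knockdown without HMBA the same fit called 2 genes (0.0134%), NELFE and B3GALT4, and 1125 genes reached an unadjusted p under 0.05 (7.54%). The setting with HMBA held 5 libraries and the only replicate pair, and that without held 4, so the counts are not on an equal footing. Of the 27 genes higher with HMBA, 17 had a positive log2 fold change without it, and all 17 lower genes had a negative one. The median over all genes without HMBA was 0.004, and the share of all genes with each sign was not counted. B3GALT4 is among the higher genes and NELFE among the lower, and both were called without HMBA.

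Among the 27 higher genes were MYC, CDKN1A, DUSP1 and BTG2. For genes called in the 9-library fit alone, the log2 fold changes with HMBA given here and below are those of the 5-library fit. None of those genes passed in the 5-library fit. MYC, the transcription factor, stood at 70.9, 56.2 and 61.5 CPM in the shNELFE libraries with HMBA and at 33.7 and 32.9 CPM in the shCTL libraries. Its log2 fold change was 0.94 (adjusted p = 0.0475 in the 9-library fit, 0.259 in the 5-library fit). Without HMBA it was far higher in all 4 libraries, at 639 and 745 CPM in shNELFE and 814 and 810 CPM in shCTL. CDKN1A, which encodes the p53-induced cell-cycle inhibitor p21, stood at 1229, 1000 and 1104 CPM in shNELFE and at 569 and 538 CPM in shCTL (log2 1.03, adjusted p = 0.0343 in the 9-library fit, 0.245 in the 5-library fit). Without HMBA CDKN1A was also higher in shNELFE, at 168 and 136 CPM against 113 and 85.2 CPM (log2 0.63, adjusted p = 0.243 in the 9-library fit). DUSP1 and BTG2, a MAP kinase phosphatase and an antiproliferative p53 target, had log2 fold changes of 0.99 and 1.15 and adjusted p-values of 0.0475 and 0.0499 in the 9-library fit. Without HMBA DUSP1 had −0.15 and BTG2 0.76, and neither passed.

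CCN2, THBS1 and HAS3 were also among the 27. CCN2 encodes connective tissue growth factor, a target of YAP and of TGF-beta. It stood at 716, 1032 and 803 CPM in shNELFE with HMBA and at 306 and 385 CPM in shCTL, while all 4 libraries without HMBA lay between 12.3 and 13.3 CPM. Its log2 fold change was 1.24 (adjusted p = 0.0319 in the 9-library fit). THBS1, thrombospondin 1, stood at 269, 429 and 477 CPM in shNELFE and at 137 and 241 CPM in shCTL (log2 0.94, adjusted p = 0.0475). Within each shRNA its libraries with EPZ-5676 were the higher ones. HAS3, a hyaluronan synthase, had a log2 fold change of 0.94 with the same adjusted p, and its highest shNELFE library was the one with HMBA alone, at 82.0 CPM against 41.3 CPM in shCTL with HMBA alone.

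Further genes of the 27 were EIF4A3, NXF1, SLC6A8, GLUL, CITED2, CHRNA7 and MT-ND6. EIF4A3, a helicase of the exon junction complex, stood at 1183, 1509 and 1285 CPM in shNELFE and at 576 and 645 CPM in shCTL (log2 1.08, adjusted p = 0.0357). NXF1, the mRNA export receptor, had a log2 fold change of 0.92 (adjusted p = 0.0473). The creatine transporter SLC6A8 had 0.88 and glutamine synthetase, GLUL, 1.05 (both adjusted p = 0.0475). CITED2, a transcription cofactor, had 1.21 (adjusted p = 0.0473). CHRNA7, a nicotinic receptor subunit, stood at 38.1, 36.9 and 38.4 CPM in shNELFE and at 15.3 and 15.1 CPM in shCTL, with little spread within either group. Its log2 fold change was 1.32 (adjusted p = 0.0225), and part of it is duplicated in the CHRFAM7A gene, so its reads may be divided. MT-ND6, encoded on the other strand from most mitochondrial genes, had 1.08 (adjusted p = 0.0475), and the strand setting of the counts is not given in the sources used here.

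The 17 lower genes included SLC7A11 and SLC2A3. SLC7A11, the cystine carrier subunit, stood at 38.6, 31.0 and 37.5 CPM in shNELFE and at 102 and 81.6 CPM in shCTL. Its log2 fold change was −1.32 (SE 0.16, adjusted p = 0.0255 in the 9-library fit, 0.157 in the 5-library fit). Without HMBA the value was −0.98 (SE 0.15), and the 2 settings did not differ by the test (change −0.34, SE 0.20, adjusted p = 0.921). SLC2A3, the glucose transporter GLUT3, had a log2 fold change of −1.70 (adjusted p = 0.0473), and its reads may be shared with its close copy SLC2A14. CREB3L2, a membrane-bound transcription factor of the secretory pathway, stood at 30.2, 35.7 and 30.5 CPM in shNELFE and at 64.3 and 59.8 CPM in shCTL (log2 −0.95, adjusted p = 0.0475). WASF2, an actin regulator, had −1.08, CTNND1, p120 catenin of cell junctions, −0.77, and KRT15, a keratin, −0.92, each with an adjusted p of 0.0475.

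The 27 higher genes were short, with a median span in the annotation of 6.001 kb, against 46.4 kb for the 17 lower genes and 29.5 kb for all genes tested. This is a description of genes that had passed, with no test. The 27 are not all separate loci. ADRA2B (96112875 to 96116245), ASTL (96123850 to 96138436) and DUSP2 (96143166 to 96145440) lie close together on the minus strand of chromosome 2. Whether their counts are independent was not tested. The 27 also hold the antisense transcript AP000692.2 and the mitochondrial MT-ND6.

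Promoter sequence is shown for 3 of the higher genes, ADM, CCN2 and DUSP2, to set the core promoter beside their values; DUSP2 encodes a MAP kinase phosphatase and its levels are given below. Each is the 120 bases before the start in RefSeq (GRCh38.p14), at chr11:10304953-10305072 on the plus strand for ADM, and at chr6:131951373-131951492 and chr2:96145441-96145560 on the minus strand for CCN2 and DUSP2. Capitals mark the TATA motif TATAAA in ADM and CCN2, and in DUSP2 the motif ACGTG, which lies on both strands in overlap.
ADM: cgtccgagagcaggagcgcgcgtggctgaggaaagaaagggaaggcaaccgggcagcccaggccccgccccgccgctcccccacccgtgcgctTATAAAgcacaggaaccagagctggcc
CCN2: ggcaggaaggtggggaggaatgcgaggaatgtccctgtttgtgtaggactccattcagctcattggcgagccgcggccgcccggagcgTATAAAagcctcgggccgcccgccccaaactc
DUSP2: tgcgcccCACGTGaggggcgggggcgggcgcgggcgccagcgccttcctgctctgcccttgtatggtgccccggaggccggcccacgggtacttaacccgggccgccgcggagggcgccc

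TATAAA began 27 bases before the start in ADM and 32 in CCN2. In 250 bases before the start, on both strands, it was found in 5 of the 17 higher genes with a RefSeq promoter entry (29.4%: ADM, CCN2, DUSP1, NXF1 and KRTAP2-3). It was found in 1 of 9 lower genes (11.1%), LIPH, in 5.33% of tested genes and in 11.1% of all 27305 promoters. ACGTG was found in 7 of the 17 higher genes (41.2%), 2 of the 9 lower genes (22.2%), 23.4% of tested genes and 18.7% of all promoters. The AP-1 motif TGANTCA was found in none of the 26 called genes with an entry and in 3.84% of tested genes. The cyclic AMP response motif TGACGTCA was found in DUSP1 and CREB3L2 and in 2.84% of tested genes. A match describes letters in the window and is no measured site.

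The change of the knockdown effect between the settings with and without HMBA was tested directly. It passed for 3 of 14912 genes (0.0201%), all with a higher effect under HMBA and among them ARC and ADM, and 495 genes reached an unadjusted p under 0.05 (3.32%). For ARC the change was 2.63 on the log2 scale (SE 0.22, adjusted p = 0.0250) and for ADM 2.50 (SE 0.19, adjusted p = 0.0186). Both calls ended when any one of 7 of the 9 libraries was left out, that is, any except the 2 of shNELFE with both compounds, while the changes stayed between 2.47 and 2.78 for ARC and 2.38 and 2.62 for ADM.

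DUSP2, CDKN1C and HAS3 followed by p. DUSP2 stood at 20.4, 22.7 and 19.9 CPM in shNELFE with HMBA and at 7.97 and 6.66 CPM in shCTL, and without HMBA at 17.2 and 21.7 CPM in shNELFE and 23.9 CPM in both shCTL libraries. As with ADM, the shCTL libraries with HMBA were the low ones. The change of 1.84 (SE 0.23) had an adjusted p of 0.226. For CDKN1C it was 2.55 (SE 0.38, adjusted p = 0.440) and for HAS3 1.19 (SE 0.18, adjusted p = 0.440). MYC had a change of 1.17 (SE 0.19, adjusted p = 0.441) and CCN2 one of 1.31 (SE 0.22, adjusted p = 0.529). A p above the threshold does not show that the effect was the same in both settings.

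**Figure D4:**
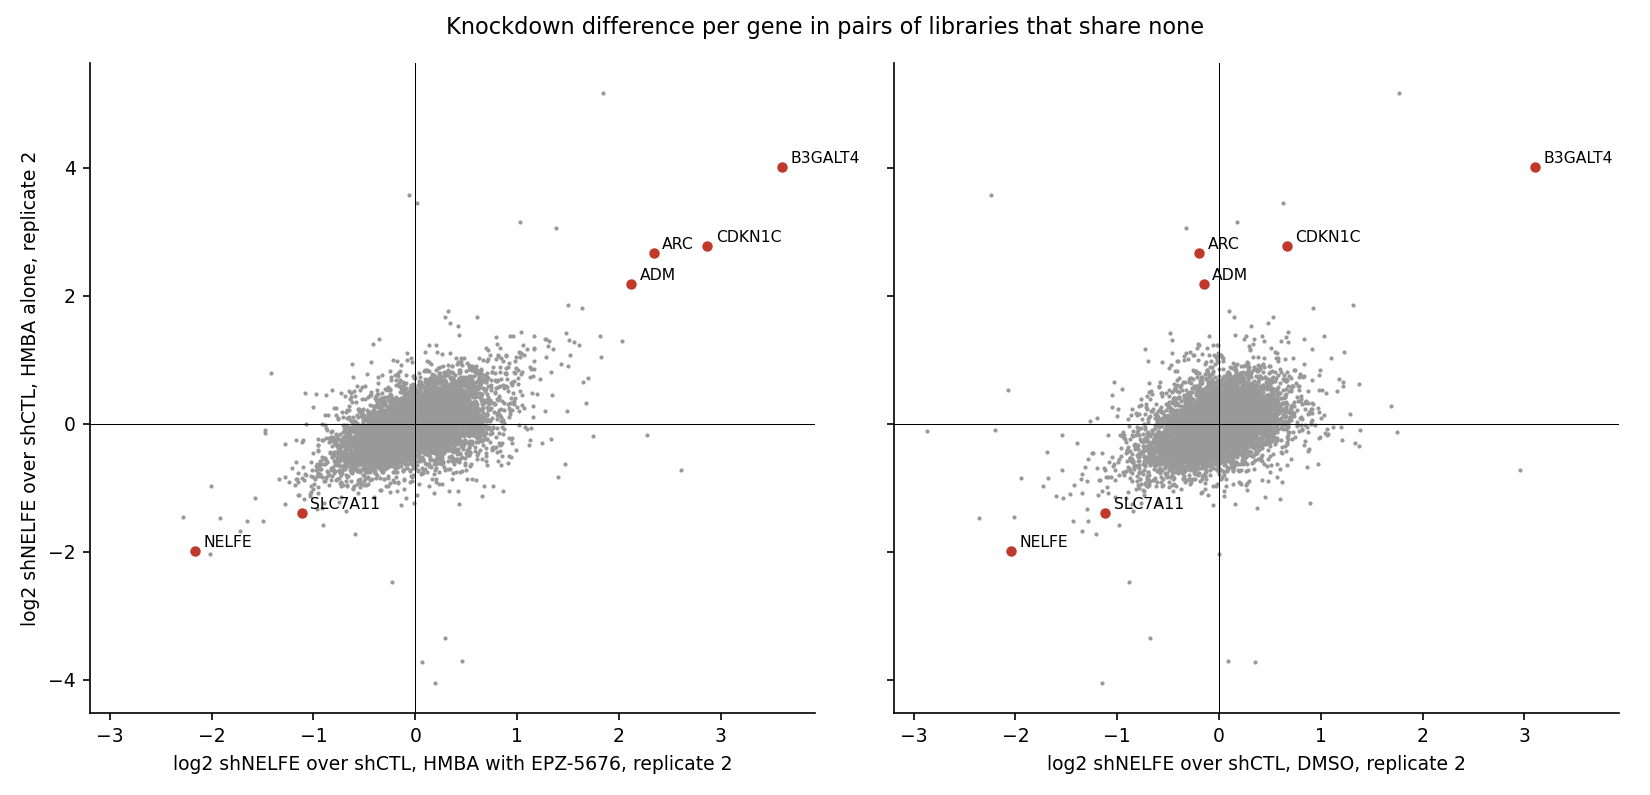
Log2 ratio of shNELFE over shCTL for each gene with a mean of at least 2 CPM (0.5 CPM added), compared between pairs of libraries that share no library. NELFE lies low on both axes in each panel, and ARC and ADM lie high in both pairs with HMBA and near 0 in the DMSO pair.

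Pairs of libraries that differ in the shRNA alone were set side by side. Across 12195 genes the log2 ratios of the pair with HMBA alone and of the replicate 2 pair with both compounds had r = 0.529. The pairs with DMSO and with EPZ-5676 had r = 0.540 with each other. Across the settings r ran from 0.334 to 0.469 over 4 combinations. These are descriptions across genes, which share libraries' depth and are not independent, and carry no test.

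Whether the knockdown effect differed between HMBA alone and both compounds was tested with 1 residual degree of freedom. It passed for 15 of 14898 genes (0.101%), and 97 genes reached an unadjusted p under 0.05 (0.651%). All 15 had a library at 10 counts or fewer and 12 had one at 0 counts, and the highest level of any was 29.03 CPM, so they are given as a count only.

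Gene groups were described by counts and medians beside those of all genes, whose median log2 fold change was 0.01. Among genes of the groups, ADM and NELFE alone passed in the 5-library fit, so the counts below are of genes at an unadjusted p under 0.05, to be read against 4.71% of all genes higher and 4.23% lower. Genes are named by the smallest p, and values of genes that did not pass are given without a call.

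Genes of the G1/S transition and DNA replication encode the enzymes and origin proteins of S phase. Of 40 tested, 11 had an unadjusted p under 0.05 with shNELFE higher and 0 lower, and in 29 the libraries did not overlap with shNELFE higher, which was so of 16.9% of all genes. The median log2 fold change was 0.39 with HMBA, against 0.17 without. MCM4, of the replicative helicase, stood at 319, 283 and 283 CPM in shNELFE and at 221 and 216 CPM in shCTL (log2 0.45, adjusted p = 0.495). RRM2, a ribonucleotide reductase subunit, had 0.54 (adjusted p = 0.509). The median was 0.31 in the pair with HMBA alone, 0.18 in replicate 2 with both compounds and 0.53 in replicate 1. Genes of G2/M and mitosis counted 1 higher and 0 lower of 36, with a median of 0.10, which was −0.01 on unscaled library totals and 0.035 with replicate 1 left out.

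Replication-dependent histone genes are nearly identical to one another and mostly lack poly(A) tails, so their counts in poly(A) libraries are uncertain. Of 28 listed, 11 could be tested, and 8 of these had an unadjusted p under 0.05 with shNELFE higher and 0 lower. The median was 0.94 with HMBA and 0.26 without. It was 0.89, 0.76 and 0.55 in the pairs with HMBA alone and with both compounds (replicates 2 and 1), and without HMBA 0.68 in the DMSO pair and −0.07 in the EPZ-5676 pair, so the DMSO pair lay within the range of the pairs with HMBA. H2BC12 stood at 12.1, 18.1 and 22.2 CPM in shNELFE and at 5.09 and 10.1 CPM in shCTL (log2 1.09, adjusted p = 0.283). H3C10 had a log2 fold change of 1.78 (adjusted p = 0.283) and H4C14 of 1.31 (adjusted p = 0.383).

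Immediate early genes are transcribed within minutes of a signal. Of 36 tested, 12 had an unadjusted p under 0.05 with shNELFE higher and 3 with shNELFE lower, and ARC is not among the 36. Their median was 0.16 with HMBA and −0.09 without, and 0.31 in the pair with HMBA alone but 0.09 in both pairs with both compounds. Among p53 target genes 7 of 27 were higher at an unadjusted p under 0.05 and 0 lower, with a median of 0.25 against 0.14 without HMBA. That median was 0.21 in the pair with HMBA alone, 0.17 in replicate 2 with both compounds and 0.32 in replicate 1. Without HMBA it was 0.19 in the DMSO pair, within the range of the pairs with HMBA, and 0.08 in the EPZ-5676 pair. PLK2, a polo-like kinase, stood at 142, 185 and 178 CPM in shNELFE and at 78.5 and 114 CPM in shCTL (log2 0.76, adjusted p = 0.283). In the BCL2 family, which controls apoptosis, 2 of 15 were higher, BIK at 1.27 (adjusted p = 0.297) and PMAIP1 at 0.64 (adjusted p = 0.517), and 0 lower.

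Genes of ribosome biogenesis and other MYC targets counted 5 higher and 0 lower of 35 at an unadjusted p under 0.05, with a median of 0.24 against 0.09 without HMBA. NOP56, a nucleolar protein of ribosomal RNA processing, stood at 817, 832 and 931 CPM in shNELFE and at 539 and 557 CPM in shCTL (log2 0.64, adjusted p = 0.384). RRS1 had 0.66 (adjusted p = 0.410) and the transferrin receptor TFRC 0.63 (adjusted p = 0.418). Cytosolic ribosomal protein genes counted 2 higher and 1 lower of 59, with a median of 0.10 that was −0.01 on unscaled totals. It was 0.12 in the pair with HMBA alone, −0.08 in replicate 2 with both compounds and 0.26 in replicate 1, and 0.023 with replicate 1 left out of the fit. Nuclear respiratory chain genes counted 5 higher and 0 lower of 39, with a median of 0.30. That median was 0.19 in the pair with HMBA alone, 0.06 in replicate 2 with both compounds and 0.62 in replicate 1, the library with the largest mitochondrial share of counts, so replicate 1 decided its size. COX7C, a subunit of cytochrome oxidase, stood at 189, 315 and 184 CPM in shNELFE and at 128 and 141 CPM in shCTL (log2 0.71, adjusted p = 0.514), and the 315 CPM is replicate 1.

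Genes of the amino acid response are driven by the transcription factor ATF4. Of 27 tested, 6 had an unadjusted p under 0.05 with shNELFE lower and 1 with shNELFE higher, and the median was −0.20 with HMBA and −0.42 without. ASNS, asparagine synthetase, stood at 231, 389 and 269 CPM in shNELFE and at 427 and 477 CPM in shCTL (log2 −0.69, adjusted p = 0.490). AARS1, an alanyl-tRNA synthetase, had −0.64 (adjusted p = 0.525). Unfolded protein response genes counted 0 higher and 5 lower of 21, with a median of −0.22 with HMBA and −0.46 without. DNAJC3, a co-chaperone of the endoplasmic reticulum, stood at 109, 123 and 117 CPM in shNELFE and at 165 and 178 CPM in shCTL (log2 −0.58, adjusted p = 0.383), and SEL1L, of the degradation pathway there, had −0.50 (adjusted p = 0.495). The median of this list was −0.22 in the pair with HMBA alone and −0.43 in replicate 2 with both compounds, but 0.04 in replicate 1.

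Cholesterol genes counted 0 higher and 4 lower of 24, with a median of −0.09. It was −0.18 in the pair with HMBA alone, −0.22 in replicate 2 with both compounds and 0.10 in replicate 1, and −0.23 with replicate 1 left out of the fit. STARD4, a sterol carrier, stood at 30.5, 20.04 and 32.0 CPM in shNELFE and at 60.5 and 53.2 CPM in shCTL (log2 −1.01, adjusted p = 0.383). INSIG1, which retains the sterol sensor in the endoplasmic reticulum, had −0.73 (adjusted p = 0.341). FASN, the fatty acid synthase, is from another list and had 0.64 (adjusted p = 0.383). Interferon-stimulated genes counted 1 higher and 4 lower of 30, with a median of −0.11 against −0.32 without HMBA. Their median was −0.05 in the pair with HMBA alone, −0.23 in replicate 2 with both compounds and −0.06 in replicate 1, and OASL, SAMD9 and IFI35 had log2 fold changes of −1.01, −0.79 and −0.84, none of which passed. Inflammatory genes responsive to NF-kB counted 1 higher and 3 lower of 18. LCN2, lipocalin 2, stood at 2.89, 3.52 and 1.26 CPM in shNELFE and at 8.86 and 8.06 CPM in shCTL (log2 −1.69, adjusted p = 0.383).

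Epithelial junction and keratin genes counted 0 higher and 6 lower of 25. GRHL2, a transcription factor of epithelial identity, stood at 10.4, 5.60 and 6.87 CPM in shNELFE and at 18.6 and 13.9 CPM in shCTL (log2 −1.02, adjusted p = 0.297), and OCLN, occludin, had −0.52 (adjusted p = 0.495). The median of the 25 was −0.05 with HMBA and −0.34 without, so it lay lower without HMBA. By pair it was −0.06 with HMBA alone, −0.31 in replicate 2 with both compounds and 0.07 in replicate 1. Without HMBA it was −0.37 in the DMSO pair and −0.27 in the EPZ-5676 pair. Mesenchymal genes counted 3 higher and 0 lower of 13, with a median of 0.01 that was −0.06 with HMBA alone, −0.02 in replicate 2 with both compounds and 0.49 in replicate 1, and SNAI1 and VIM had 0.56 and 0.83 without passing. Genes of the BMP and TGF-beta pathway counted 5 higher and 0 lower of 15, among them ID2 at 0.61 (adjusted p = 0.428). Their median was 0.12, and 0.22 with HMBA alone, 0.006 in replicate 2 with both compounds and 0.27 in replicate 1. Libraries did not overlap in 26.7% with shNELFE higher and 13.3% with it lower, against 16.9% of all genes each way. YAP and TEAD targets counted 3 higher and 1 lower of 16, with CCN1 at 265, 550 and 330 CPM in shNELFE and 122 and 161 CPM in shCTL (log2 1.30, adjusted p = 0.283). Glycolysis and hypoxia genes counted 3 higher and 2 lower of 27. Beside ADM, NDRG1 and ALDOC had −0.76 and −0.63, on the opposite side to ADM, and neither passed. Of the elongation machinery, P-TEFb and 7SK genes counted 0 in either direction of 9, and Integrator and cap-binding complex genes 0 of 18. RNA polymerase II subunits counted 2 higher and 0 lower of 12. Genes of DSIF, the PAF complex and the super elongation complex counted 0 higher and 1 lower of 21. DOT1L and its partners counted 0 in either direction of 6. Their median of −0.34 was −0.25 with HMBA alone, −0.14 in replicate 2 with both compounds and −0.74 in replicate 1.

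**Figure D5:**
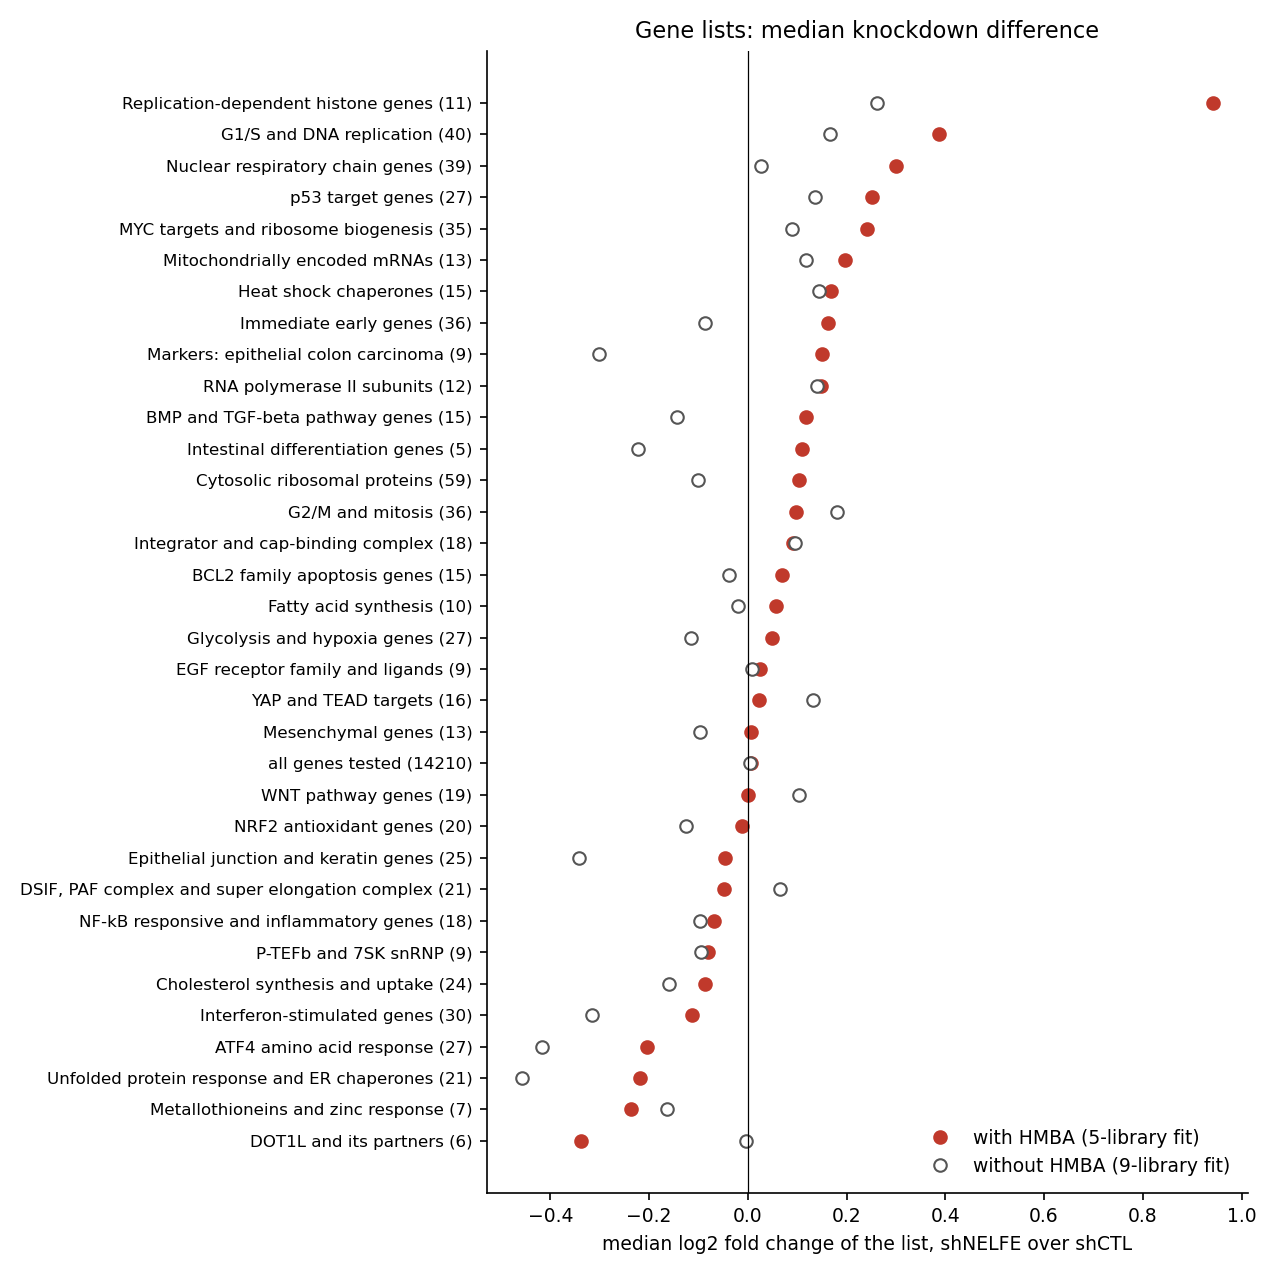
Median log2 fold change (x axis) of each gene list with at least 5 genes tested, whose number is in parentheses, for shNELFE over shCTL with HMBA (filled) and without it (open), beside all genes tested. Replication-dependent histone genes (0.94 with HMBA) and G1/S genes (0.39) lie highest and unfolded protein response genes (−0.22) lie below 0 in both settings.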

How the data were processed

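Poly(A) RNA libraries were made with a stranded mRNA kit, per the labels' protocols. The deposited values are raw counts of reads per gene (60676 rows, 58575 with a symbol, 58503 with a GENCODE release 29 position). STAR 2.4.0b, Cufflinks 2.1.1, HTSeq 0.6.1p1, edgeR and hg38 were named, with no role given, per the submitters' processing notes.

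Samples were grouped by title. Counts were fitted with edgeR 4.0.16 (R 4.3.3; quasi-likelihood F-test, TMM, filterByExpr, Benjamini-Hochberg at 0.05 over all genes tested) with terms for shRNA and EPZ-5676 on 5 libraries (2 residual degrees of freedom). A fit on 9 libraries estimated both effects with and without HMBA, and a further fit added shRNA by EPZ-5676 on the 5. Ratios of pairs used 0.5 CPM as pseudocount. Alternatives were RLE, unscaled totals, no filter, DESeq2 1.42.0, limma-voom (limma 3.58.1), other sets of libraries, a replicate block and leaving out each library; those for the change with EPZ-5676 were added after seeing the data. Of the fits, only that on 5 libraries with terms for shRNA and EPZ-5676 was tested on simulated counts. Those counts took their means and spread from the same 5 libraries, and the outcome is not given here. Intervals and floors (3 counts) cover counting error only.

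The libraries, 37 gene lists (817 of 819 entries matched) and naming rule were chosen with earlier results of these data known. The rule took the NELF subunits, HEXIM1, CDK9, MYC, CDKN1A and DOT1L, up to 12 genes per direction past the threshold, up to 3 per list and 6 for the change with HMBA, each by p or size, and NELFE's neighbours. Genes of the 9-library fit, CCN2 and the promoters were chosen after their values were seen. Results for some genes are not reported here.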

Additional observations from a re-analysis of the deposited data

Results flagged for a closer look

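The knockdown effect differed between the settings with and without HMBA, by the test of that difference, for ADM (2.50 on the log2 scale) and ARC (2.63). Leaving out any one of 7 of the 9 libraries ended both calls, while the values stayed between 2.38 and 2.78. Among libraries with HMBA, the effect differed with EPZ-5676 for 15 genes, each of which had a library at 10 counts or fewer, and DESeq2 on the same genes called 0 (27 at an unadjusted p under 0.05).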

How the results depend on the processing

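The count of 5 genes for the knockdown with HMBA was 5 with RLE and with limma-voom. It was 1 (ARC) on unscaled totals, where the median of all genes was −0.10, 155 with no filter, 92 with DESeq2, 9 with no EPZ-5676 term, 44 with 9 libraries, and 19 to 1910 leaving out 1 library (21 without shCTL with HMBA alone, 22 without shNELFE with HMBA alone, 19 without shCTL with both compounds, 1910 and 1202 without replicates 1 and 2 of shNELFE with both). All 8 libraries labelled with HMBA gave 0 (106 at an unadjusted p under 0.05). A replicate block gave 2598 on the 5 libraries, where 1 alone is numbered 1 and pairing cannot be checked, and 0 on the 8 (200 at an unadjusted p under 0.05). NELFE was −2.28 to −2.03 leaving out 1 library, −2.27 unscaled (adjusted p = 0.102), −2.34 on the 8 (adjusted p = 1.00) and −2.22 there with the replicate block (adjusted p = 0.985). The count of 3 for the change with HMBA was 16 with no filter, 15 with DESeq2, 238 with the replicate block on 9 libraries, and 0 to 212 leaving out 1 library (212 and 8 without replicates 1 and 2 of shNELFE with both compounds, 0 without any other, 182 to 290 at an unadjusted p under 0.05). The 15 for the change with EPZ-5676 was 23 with no filter and 0 with DESeq2. The cause was not tested.

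Directions were compared for 76 genes, taken by the naming rule or from the 9-library fit. Most were chosen by their values in these libraries, and the settings refit the same counts. Agreement in direction was therefore largely fixed in advance and is given as a description. Of 988 values under settings other than the 8 libraries, 980 kept their direction. The others were NELFA (0.023 with no EPZ-5676 term, and −0.14 to 0.042 leaving out 1 library, positive without shCTL with HMBA alone, shNELFE with HMBA alone or replicate 2 of shNELFE with both), HEXIM1 (0.055 with the replicate block on the 5, and −0.053 to 0.060 leaving out 1 library, positive without shCTL with both or replicate 1) and CDK9 (−0.10 to 0.016 leaving out 1 library, positive without shCTL with both). On the 8 libraries, 10 of the 76 values turned. They were −0.50 for NELFB, −0.95 for MYC, −0.24 for DOT1L, −3.59 for VIM, 0.47 for ESRP2, 0.044 for CCNT1, 0.33 for HEXIM1, −0.0055 for DUSP1, −0.13 for RRS1 and −0.012 for NFKBIA. With the replicate block there, 13 of the 76 turned. They were −0.33 for NELFB, −0.54 for MYC, −0.13 for DOT1L, −3.23 for VIM, 0.25 for ESRP2, 0.27 for CCNT1, 0.58 for HEXIM1, 0.70 for DNAJC3, 0.18 for SEL1L, 0.27 for OASL, 0.49 for NDRG1, 0.40 for ALDOC and 1.90 for KRT15.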
